A study of Mus musculus with 2 samples.

Results

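IL-33, its receptor ST2 and the type 2 cytokines were examined as 8 genes chosen by name: *Il33*, *Il1rl1*, *Il1rap*, *Gata3*, *Il5*, *Il13*, *Il4* and *Il17rb*. They are 8 of the 22337 gene symbols in the data, and 19847 of those symbols were above 0 in some cell. The data are single-cell RNA-Seq of 4441 cells from 6 Bm12 heart grafts transplanted heterotopically into B6 mice and taken at postoperative day (POD) 14. The grafts labelled IL-33+ (hearts 1 to 3) came from Bm12 *Il33*+/+ donors and those labelled IL-33- (hearts 4 to 6) from Bm12 *Il33*-/- donors, a line made by backcrossing. Every graft, whatever its *Il33* genotype, was from a male Bm12 donor, which differs from B6 at an MHC class II molecule, and sat in a male B6 recipient whose own *Il33* was intact. Thus recipient cells in an IL-33- graft could still carry *Il33* transcripts. Ages were not given in the sources used here.

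Cells had been enriched for immune cells on a density gradient, marked with 1 hashtag antibody per heart, pooled and captured in droplets with a 3' kit that tags each transcript with a unique molecular identifier (UMI). The authors assigned each cell to 1 of 14 types. Levels are given as CPM, the UMIs of a gene scaled to the same total in every cell, as the mean for a type within each heart. The heart was the replicate (n = 3 per group). Hearts held 230 to 1666 cells and 908135 to 7012891 UMIs, cells held 1500 to 14977 UMIs with a median of 3698, and no cell barcode occurred more than once. Heart 3 alone gave 270 of the 375 cells annotated fibroblasts, whereas hearts 2 and 5 gave 6 and 4. The fibroblast annotation was highest in all 8 fibroblast markers and also in all 8 endothelial markers examined. The Treg annotation was highest in 8 of 9 Treg markers, with *Ikzf2* higher in central memory T (Tcm) cells, but the defining factor *Foxp3* had a UMI in only 51 of 263 Tregs.

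IL-33 is a nuclear cytokine of stromal and barrier cells that is released upon injury. It binds ST2, encoded by *Il1rl1*, which pairs with the co-receptor IL-1RAcP, encoded by *Il1rap*, and signals through MyD88 and IRAK kinases to NF-κB. ST2 is carried by group 2 innate lymphoid cells (ILC2), mast cells, basophils, Th2 cells and tissue Tregs. GATA3 is the transcription factor of Th2 cells and ILC2 that opens the locus of *Il4*, *Il13* and *Il5*. IL-5 supports eosinophils, IL-13 and IL-4 act on macrophages and fibroblasts, and IL-17RB, encoded by *Il17rb*, is part of the receptor for IL-25, another cytokine of the type 2 response.

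The 3 cytokine genes share 1 locus. In GENCODE vM21 on GRCm38, *Il4* lies on the minus strand of chromosome 11 from 53602982 to 53618669, *Il13* follows on the minus strand from 53631324 to 53634702, and *Il5* lies on the plus strand from 53720794 to 53725106, with *Rad50* between *Il13* and *Il5*. *Il1rl1* spans 40429570 to 40465415 on the plus strand of chromosome 1 and is followed directly by *Il18r1*, another IL-1 family receptor, at 40465552. *Il33* spans 29925114 to 29960718 on chromosome 19, *Il1rap* 26581704 to 26730117 on chromosome 16, *Gata3* 9857078 to 9890034 on chromosome 2 and *Il17rb* 29996135 to 30008896 on chromosome 14. The 250 bases before the start of *Il1rl1*, *Il5*, *Il13* and *Il4* are printed from RefSeq (GRCm38.p6), 5' to 3' on the strand of the gene, because these 4 genes are the receptor and the cytokines whose levels are compared with *Gata3* below. Capitals mark the letters of a GATA motif on either strand. The forms searched were AGATAA together with its relative AGATAG, plus TGATAA together with its relative TGATAG.
Il1rl1, chr1:40429320-40429569, plus strand: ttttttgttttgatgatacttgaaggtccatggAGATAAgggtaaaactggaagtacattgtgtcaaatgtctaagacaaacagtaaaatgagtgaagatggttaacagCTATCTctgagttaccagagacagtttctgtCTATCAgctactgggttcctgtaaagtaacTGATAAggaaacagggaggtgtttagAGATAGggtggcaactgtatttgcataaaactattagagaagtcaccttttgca
Il5, chr11:53720544-53720793, plus strand: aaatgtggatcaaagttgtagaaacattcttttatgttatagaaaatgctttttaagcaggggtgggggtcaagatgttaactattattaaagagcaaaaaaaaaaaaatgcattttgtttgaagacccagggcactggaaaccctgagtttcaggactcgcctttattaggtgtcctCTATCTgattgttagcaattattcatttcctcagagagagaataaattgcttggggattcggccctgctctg
Il13, chr11:53634703-53634952, minus strand: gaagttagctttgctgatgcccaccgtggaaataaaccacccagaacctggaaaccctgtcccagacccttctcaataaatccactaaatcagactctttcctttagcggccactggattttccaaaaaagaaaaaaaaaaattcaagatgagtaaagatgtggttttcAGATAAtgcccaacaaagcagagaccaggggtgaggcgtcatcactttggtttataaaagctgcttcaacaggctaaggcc
Il4, chr11:53618666-53618915, minus strand: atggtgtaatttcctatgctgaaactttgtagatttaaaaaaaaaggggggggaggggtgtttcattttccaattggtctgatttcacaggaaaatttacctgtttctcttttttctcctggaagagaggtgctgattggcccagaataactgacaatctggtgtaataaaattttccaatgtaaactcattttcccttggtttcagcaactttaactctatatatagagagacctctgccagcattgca
The *Il1rl1* window held 5 matches, starting at positions -217, -141, -110, -80 and -54 counted from the start site. The *Il5* and *Il13* windows held 1 each, at -72 and -81, and the *Il4* window held 0. A second annotated start of *Il1rl1* (chr1:40439379-40439628) had 1 match, as did a window before a RefSeq start inside the span of *Il4* (chr11:53617339-53617588), and the windows of *Il33*, *Il1rap*, *Gata3* and *Il17rb* had none. Of all 32851 promoter windows of this length, 26.5% held at least 1 match and 0.0426% held 5 or more. A match describes the letters only and is not a measured binding site.

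The genes divided by cell type and by the number of cells that carried them. *Il33* was found mainly in fibroblasts, *Il1rl1* mainly in Tregs, *Il1rap* at low levels in every type, and *Gata3* in T cells, NKT cells and NK cells. *Il5*, *Il13* and *Il4* were held by very few cells. The types were made by clustering the same cells on the same genes, so levels across types are given as a description.

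**Figure D1:**
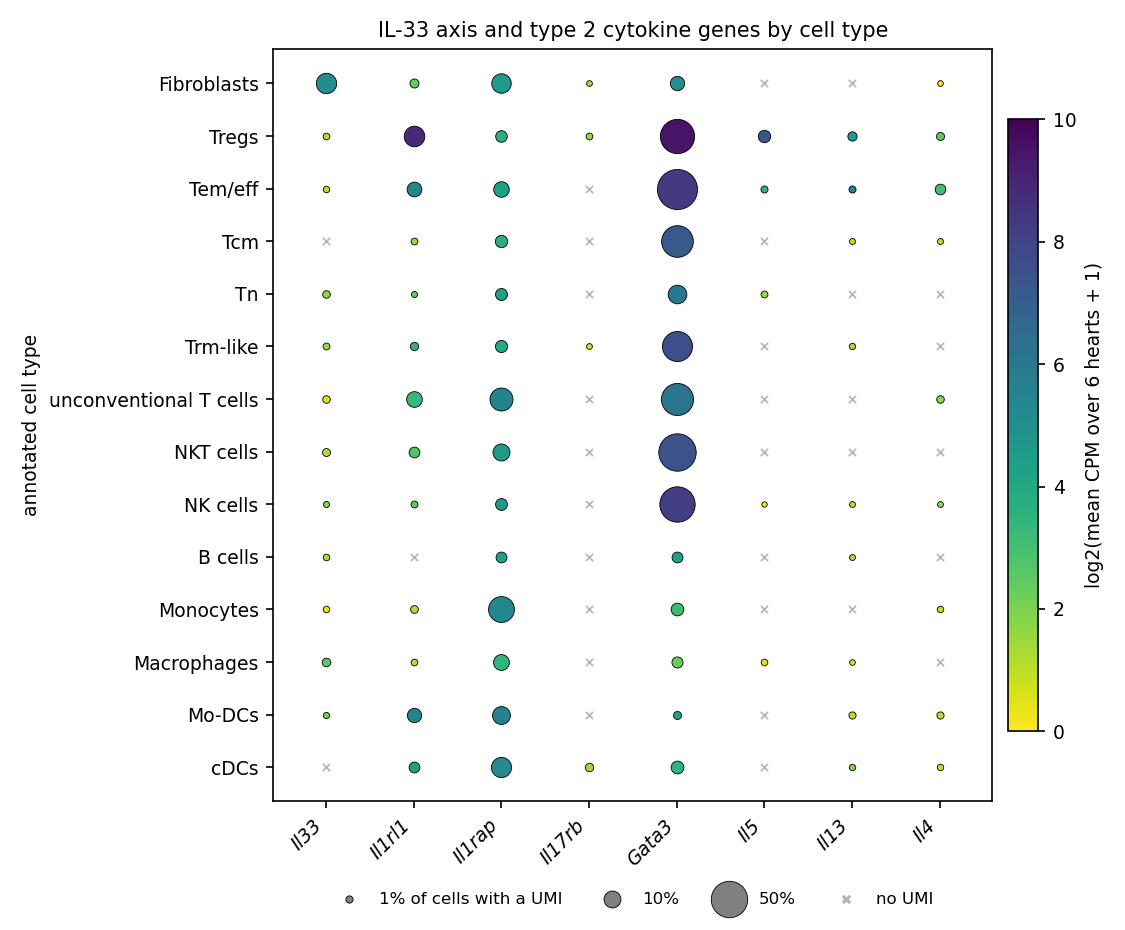
Level of the 8 genes in the 14 annotated cell types. Colour gives log2(mean CPM over 6 hearts + 1), circle area the percent of cells with a UMI and a cross 0 UMIs; *Il33* is strongest in fibroblasts, *Il1rl1* and *Il5* in Tregs, and *Gata3* spans Tregs, Tem/eff cells and NK cells, while *Il1rap* appears in every type.

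*Il33* was the targeted gene and was read first. Fibroblasts of IL-33+ hearts 1 to 3 held it at 24.3, 0 and 50.7 CPM, and those of IL-33- hearts 4 to 6 at 32.6, 73.8 and 16.1 CPM. The groups overlapped, and 3 of the IL-33- values lay above that of an IL-33+ heart. These levels rested on 7, 0 and 121 UMIs and on 9, 3 and 5 UMIs, so that hearts 2 and 5 contributed 6 and 4 fibroblasts with 0 and 3 UMIs. The log2 fold change, always given as IL-33+ over IL-33- on log2(CPM + 10), was -0.72 (SE 0.79, limma adjusted p = 0.998). The sign was the opposite in other settings, since the change was 0.45 over the 4 hearts with at least 20 fibroblasts and 0.50 when limma-voom was applied to summed UMIs. *Il33* transcripts thus did not separate the hearts labelled IL-33- from those labelled IL-33+. The part of the gene that is deleted is not given in the sources used here, and 3' tags can lie outside a deletion, so this does not test the genotype.

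In all, 56 of 375 fibroblasts (14.9%, exact 95% interval 11.5 to 18.9) had an *Il33* UMI, or 5.02% after each cell was thinned to 1500 UMIs. Of these 56 cells, 54 had at least 4 fibroblast markers. The 62 cells annotated fibroblasts with at least 4 endothelial markers held 2 of the 145 *Il33* UMIs. The highest pair of cells, both of heart 3, held 28 and 17 UMIs, and without them the level of that heart was 37.0 CPM. Outside fibroblasts, 32 of 4066 cells held 1 *Il33* UMI each and 0 held more. B cells, which should lack *Il33*, had it in 0.699% of cells at a median of 2292 UMIs per cell, against a median of 5789.5 in fibroblasts, and the share was at most 1.86%, in macrophages, in any type other than fibroblasts. It was found in 0 of 266 Tcm cells, which allows a share of up to 1.13%, and in 0 of 171 conventional dendritic cells (cDCs), which allows up to 1.75%. In macrophages 8 of 300 cells from IL-33+ hearts held 1 UMI each against 0 of 129 cells from IL-33- hearts, which allows a share of up to 2.33%. With 3 UMIs as the floor of the IL-33- group (3.21 CPM), the summed macrophage level of IL-33+ hearts (3.82 CPM) was 1.19 times that floor. The error of the 8 IL-33+ UMIs is left out, so this ratio is not a lower bound of the difference. *Il33* in macrophages was below the minimum of 10 UMIs and was not tested. Intervals cover only counting error over pooled cells, and floors only that of the group with 0 UMIs.

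*Il1rl1* was most abundant in Tregs. Its level there was 305.2, 578 and 611 CPM in IL-33+ hearts and 169, 213 and 859 CPM in IL-33- hearts. Tregs lay above every other annotated type on average, and above Tem/eff cells, the next type, in 6 of 6 hearts. Averaged over 6 hearts, Tregs had 456 ± 270.2 CPM and Tem/eff cells 42.9 ± 46.1 CPM (SD), a ratio of 10.6. When UMIs were summed over all hearts, the ratio of Tregs to the highest other type, whichever that was, came to 6.23. Tregs held 379 of the 614 *Il1rl1* UMIs (61.7%), Tem/eff cells 95, monocyte-derived dendritic cells (Mo-DCs) 38 and cDCs 35. A UMI was present in 40 of 263 Tregs (15.2%, exact 95% interval 11.1 to 20.1) at a median of 2860.5 UMIs per cell and in 0 of 286 B cells, which allows a share of up to 1.05%. After thinning, the shares were 13.01% in Tregs, 5.46% in Mo-DCs, 3.28% in Tem/eff cells and at most 2.14%, in unconventional T cells, elsewhere. The fibroblast gene *Dcn* had a UMI in 32.5% of Tregs with *Il1rl1* and in 34.1% of those without, and the part of free RNA in these shares was not tested.

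The *Il1rl1* levels of Tregs in both groups overlapped, as IL-33- heart 6 was the highest of all and IL-33- hearts 4 and 5 were the lowest. The log2 fold change was 0.58 (SE 0.37, limma adjusted p = 0.946). The share of Tregs with an *Il1rl1* UMI after thinning was 11.8%, 22.01% and 13.3% in IL-33+ hearts and 7.12%, 7.73% and 20.1% in IL-33- hearts. The means were 15.7% ± 5.52 and 11.6% ± 7.31 (SD, n = 3 hearts each), a difference of 4.06 percentage points (two-sided exact permutation test, p = 0.5, adjusted p = 1 over the 10 shares compared). The smallest p that 3 against 3 hearts allow is 0.1. Leaving out single hearts moved this difference between 0.909 points without heart 2 and 8.28 points without heart 6, and moved the log2 fold change between 0.14 without heart 4 and 1.28 without heart 6 (limma adjusted p = 0.994 and 0.315).

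In Tem/eff cells *Il1rl1* was 128, 0 and 31.3 CPM in IL-33+ hearts and 53.1, 37.0 and 7.57 CPM in IL-33- hearts, with overlapping groups and a log2 fold change of 0.043 (SE 0.56, limma adjusted p = 0.999). In Trm-like cells it was 25.3, 32.3 and 6.58 CPM in IL-33+ hearts and 0 in each IL-33- heart. These groups did not overlap, which held for 9.82% of all genes tested in the 14 types, and the IL-33+ level came from 12 UMIs in 6 of 207 cells, 7 of them in a single cell of heart 1, against 0 of 155 cells, which allows a share of up to 1.94%. With 3 UMIs as the floor of the IL-33- group (6.62 CPM), the summed level of the IL-33+ group (20.6 CPM) was 3.11 times that floor. The error of the 12 IL-33+ UMIs is left out, so this ratio is not a lower bound of the difference. The fitted change was 1.54 (SE 0.61) and did not pass the correction (unadjusted p = 0.0177 and adjusted p = 0.923 with limma), and 5.05% of all genes tested in Trm-like cells had an unadjusted p of 0.05 or less. It could not be fitted without heart 1, 2 or 3. NKT cells were the other type in which the groups of *Il1rl1* did not overlap, at 8.04, 7.66 and 8.47 CPM against 5.35, 0 and 4.83 CPM, on 9 and 4 UMIs.

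**Figure D2:**
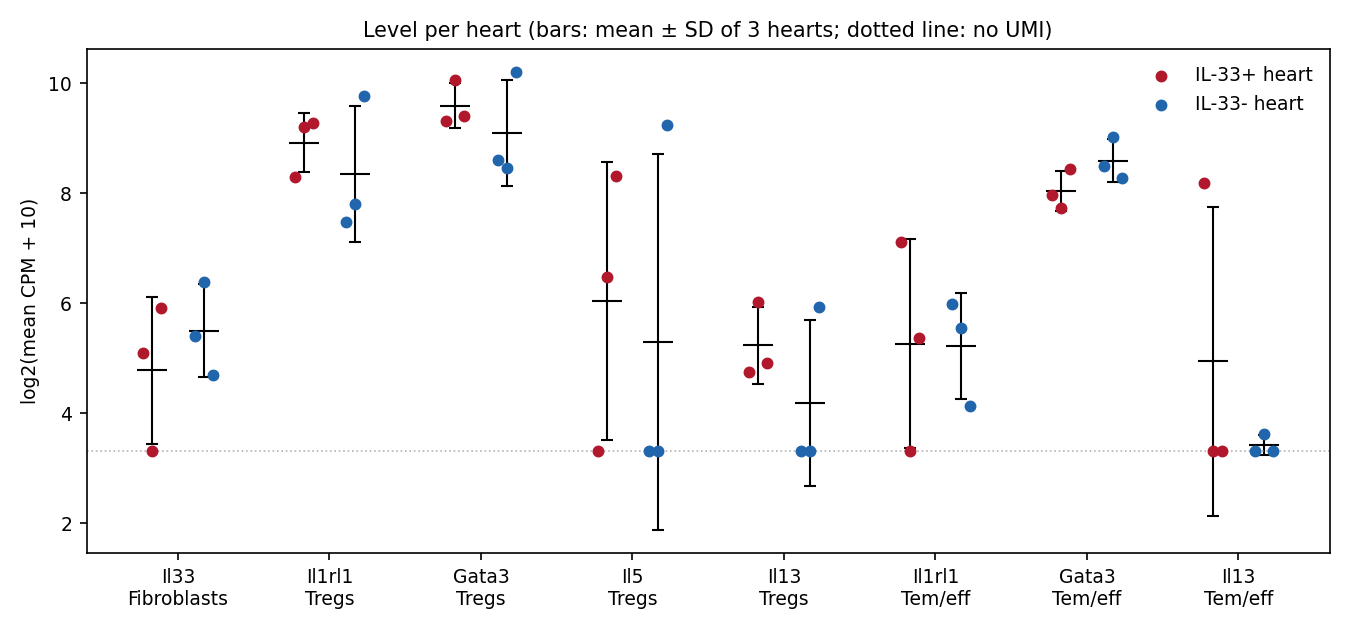
Level per heart, as log2(mean CPM + 10), for the gene and cell type pairs that the text follows, with IL-33+ hearts in red and IL-33- hearts in blue in heart order, and bars for the mean ± SD of 3 hearts. The dotted line is a level of 0 CPM; the IL-33+ and IL-33- points overlap in each of the 8 pairs drawn, and for *Il5* and *Il13* several hearts sit on the line.

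The 40 Tregs with an *Il1rl1* UMI were not uniform. *Foxp3* was found in 12 of them, with 88 *Il1rl1* UMIs. Another 13 had at least 2 of 5 measured ILC2 markers (*Calca*, *Hs3st1*, *Klrg1*, *Ptgir* and *Arg1*), with 166 *Il1rl1* UMIs, and 15 had neither, with 125. No cell was in both of the first groups, but among Tregs without *Il1rl1* 2 cells had both a *Foxp3* UMI and at least 2 ILC2 markers. Seen from the other side, 12 of the 51 Tregs with a *Foxp3* UMI had *Il1rl1* (23.5%, exact 95% interval 12.8 to 37.5), and 13 of the 15 Tregs with 2 or more ILC2 markers did.

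Those 15 cells made up 5.70% of Tregs (exact 95% interval 3.23 to 9.23) and held 43.8% of the *Il1rl1*, 35.5% of the *Gata3* and 89.3% of the *Il5* UMIs of the annotation. They were 0, 3 and 6 cells in IL-33+ hearts and 0, 1 and 5 cells in IL-33- hearts, and only 1 of 327 Tem/eff cells reached 2 of these markers. Without them, the log2 fold change of *Il1rl1* in Tregs was 0.24 (SE 0.35), and with a wider list of 8 ILC2 markers it was -0.35 (SE 0.37), neither of which passed the test (limma adjusted p = 0.981 and 0.979). The wider list added *Cxcl2*, *Dgat2* and *Lpcat2*. *Cxcl2* had a UMI in 42.5% of Tregs with *Il1rl1*, 26.9% of those without and 44% of fibroblasts. For *Lpcat2* these shares were 25%, 1.79% and 2.4%, and for *Dgat2* 12.5%, 0.897% and 2.13%. How specific either list is to ILC2 was not tested. In T cells of any annotation with a *Foxp3* UMI the log2 fold change of *Il1rl1* was 0.96 (SE 0.36, limma adjusted p = 0.945). The split between *Foxp3* and ILC2 markers thus moved the value by more than 1.5 times in either direction while 0 settings gave a call. Only 7 Tregs lacked a UMI of the T cell receptor complex, and they held 50 *Il1rl1* and 67 *Il5* UMIs.

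Of the 9 Treg markers, 5 were found in more of the Tregs with an *Il1rl1* UMI than of those without one by value, namely *Foxp3* (30% against 17.5%), the IL-2 receptor gene *Il2ra* (60% against 23.3%), *Ikzf2* (55% against 47.5%), *Tnfrsf18* (72.5% against 60.5%) and *Itgae* (7.5% against 7.17%). The other 4 were found in fewer, namely *Ctla4* (55% against 74.4%), *Tnfrsf4* (65% against 65.9%), *Icos* (72.5% against 75.8%) and *Tigit* (5% against 8.07%). The T cell receptor gene *Cd3e* was found in 47.5% against 69.96%, and the stem cell factor receptor gene *Kit* in 25% against 1.35%. These shares are counts over cells of 6 hearts and were not tested.

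Outside T cells, *Il1rl1* in dendritic cell annotations was tied to a few cells. Levels were 0, 0 and 90.9 CPM against 14.9, 0 and 136 CPM in Mo-DCs and 0, 0 and 15.3 CPM against 99.9, 0 and 0 CPM in cDCs. Just 4 of these cells, 3 from heart 4 and 1 from heart 6, had at least 4 of 10 mast cell and basophil markers, and they held 44 of the 73 *Il1rl1* UMIs of both annotations, 6 *Il13* UMIs and 1 *Il4* UMI. The same 4 cells held all 140 UMIs of the mast cell protease gene *Cpa3*, 222 of 228 of *Mcpt4* and 113 of 116 of *Tpsb2*, and 0 *Gata3* UMIs. They were not alike, since *Mcpt4* and *Tpsb2* were each found in 1 of them and *Cpa3* in 3. They held 9 of 13 UMIs of *Fcer1a*, 4 of 6 of *Ms4a2* and 10 of 26 of *Mcpt8*. Other markers were less confined, at 87 of 607 for *Cma1*, 62 of 691 for *Hdc*, 54 of 510 for *Kit* and 0 of 2 for *Prss34*. Without the 3 marked cells of heart 4, the cDC level of that heart was 0 CPM. Of 7 unconventional T cells with *Il1rl1*, 5 held at least 2 T cell and 2 macrophage markers. Eosinophil genes were scarce in these data, with 33 UMIs of *Siglecf* and 12 of *Prg2* in all cells.

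The co-receptor gene *Il1rap* was detected in all 14 types and was not concentrated where *Il1rl1* was. Mean levels were 45.7 CPM in Mo-DCs, 44.6 in unconventional T cells, 39.3 in monocytes and 36.9 in cDCs, and these neighbours exchanged places between hearts (Mo-DCs were above unconventional T cells in 4 of 6 hearts, and monocytes above cDCs in 3 of 6). Tregs ranked 13th of 14 types at 11.6 ± 11.9 CPM (SD, n = 6 hearts). After thinning, a UMI was found in 8.71% of Mo-DCs, 6.88% of monocytes, 4.64% of cDCs, 4.14% of fibroblasts and 2.32% of Tregs. Of 133 cells of any type with *Il1rl1*, 15 had *Il1rap*, beside 355 of all 4441 cells (7.99%), and of the 44 cells with 3 or more *Il1rl1* UMIs, 3 did. In Tregs it was 2 of 40, beside 11 of all 263 (4.18%). *Il1rap* was at 1 UMI in 294 of the 355 cells that had it, so at this depth a cell without a UMI may still carry the transcript.

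Over all cells *Il1rap* was 22.3, 19.4 and 22.7 CPM in IL-33+ hearts and 21.5, 26.5 and 17.6 CPM in IL-33- hearts. The groups overlapped (log2 fold change -0.012, SE 0.16, limma adjusted p = 0.993). It was tested in each of the 14 types and was called in 0, with the largest fitted difference in monocytes (log2 fold change -1.06, SE 0.76, limma adjusted p = 0.965). Monocyte levels were 61.7, 0 and 21.2 CPM against 33.2, 44.5 and 75.4 CPM, and heart 2 held only 5 monocytes.

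*Gata3* was broad. Its mean level was 709 ± 342 CPM in Tregs, 324 ± 108 in Tem/eff cells, 295 ± 37.8 in NK cells, 196 ± 65.0 in Trm-like cells, 179 ± 34.4 in NKT cells and 151 ± 26.5 in Tcm cells (SD, n = 6 hearts), and it fell to 61.0 in naive T (Tn) cells. Tregs were above Tem/eff cells in 5 of 6 hearts and NK cells above Trm-like cells in 6 of 6, while Tem/eff and NK cells changed places in 2 hearts and Trm-like and NKT cells in 3. The shares of cells with a UMI gave another order. It was 60.9% in Tem/eff cells, 52.7% in NKT cells, 47.0% in NK cells and 44.1% in Tregs, and after thinning 30.4%, 21.1%, 32.3% and 32.9%. B cells, which should lack *Gata3*, had it in 3.5% of cells (2.57% thinned) and macrophages in 3.73% (0.923% thinned). The thinned shares of Tregs, NK cells and Tem/eff cells were close to each other, while the mean level of Tregs was the highest of these types.

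In Tregs *Gata3* was 625, 1059 and 673 CPM in IL-33+ hearts and 381, 343 and 1170.3 CPM in IL-33- hearts. The groups overlapped through heart 6 (log2 fold change 0.50, SE 0.30, limma adjusted p = 0.946), and the change was 1.06 without heart 6 (limma adjusted p = 0.315) and -0.055 in T cells with a *Foxp3* UMI (limma adjusted p = 0.988). In Tem/eff cells it was 240, 203 and 340 CPM against 350, 510 and 299 CPM, lower by value in the IL-33+ group with the hearts overlapping (log2 fold change -0.55, SE 0.20). It was -0.33 without heart 5 (unadjusted p = 0.148 with limma) and -0.39 without heart 2 (unadjusted p = 0.0589 with limma). With all hearts this was 1 of 2 pairs of gene and type among the 8 genes with an unadjusted p at or under 0.05 (unadjusted p = 0.0107 and adjusted p = 0.998 with limma), and 4.41% of all genes tested in Tem/eff cells reached that mark. The other pair was *Il1rl1* in Trm-like cells. The opposite signs in Tregs and Tem/eff cells were compared directly. The log2 level in Tregs minus that in Tem/eff cells was 1.35, 2.33 and 0.97 in IL-33+ hearts and 0.12, -0.56 and 1.93 in IL-33- hearts, a difference of 1.05 that 6 hearts did not separate (two-sided exact permutation test, p = 0.3). In NK cells, the type with the most cells, *Gata3* was 351, 278 and 282 CPM against 299, 321 and 241 CPM (log2 fold change 0.080, SE 0.17, limma adjusted p = 0.972).

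*Gata3* and *Il1rl1* were found in the same cells annotated Tregs. Of 40 Tregs with *Il1rl1*, 32 had *Gata3* (80%, exact 95% interval 64.4 to 90.9), and those 40 cells held 58.8% of all *Gata3* UMIs of the annotation. Of their 341 *Gata3* UMIs, 205 lay in the 13 cells with 2 or more ILC2 markers. The 12 cells with *Foxp3* held 43 and the 15 with neither held 93. Mean *Gata3* in Tregs with and without an *Il1rl1* UMI was 1467 and 479 CPM in heart 1, 3187 and 386 in heart 2, and 2254 and 365 in heart 3. In the IL-33- hearts 4, 5 and 6 it was 1626 and 257, 2150.4 and 186, and 4311 and 325 CPM. The *Il1rl1*-positive cells were higher in 6 of 6 hearts, irrespective of graft label. They numbered only 4, 6 and 16 in hearts 1 to 3 and 5, 2 and 7 in hearts 4 to 6. By the same split the growth factor gene *Areg* was higher by value in the positive cells of 5 of 6 hearts. It was 246 against 52.4, 3249 against 99.7 and 396 against 376 CPM in hearts 1 to 3, and 0 against 40.3, 854 against 0 and 271 against 259 CPM in hearts 4 to 6, so that the gap was wide in heart 2 and narrow in hearts 3 and 6. In heart 2 single positive cells held 34 and 41 *Areg* UMIs, and the value of heart 5 rested on 2 positive cells. *Foxp3* was higher by value in 4 of 6 hearts and lower in hearts 1 and 6.

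**Figure D3:**
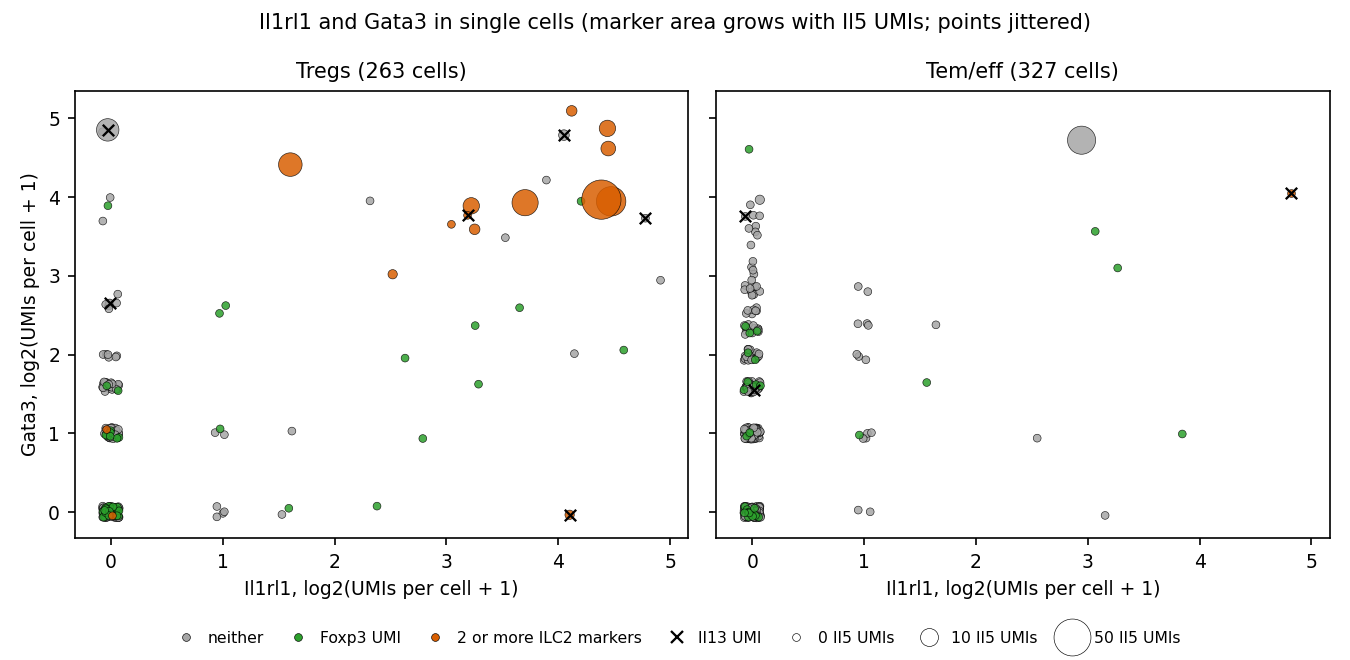
*Il1rl1* and *Gata3* in single cells annotated Tregs (left) and Tem/eff (right), each as log2(UMIs per cell + 1) with jitter. Orange marks 2 or more ILC2 markers, also in the 2 Tregs that had a *Foxp3* UMI as well, green a *Foxp3* UMI in other cells and grey neither. A cross marks an *Il13* UMI, and marker area the *Il5* UMIs; the 15 orange Tregs lie mostly at high *Il1rl1* and high *Gata3*, and hold most of the *Il5*.

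*Il5*, which encodes the eosinophil growth factor, was the gene most confined to Tregs by share of UMIs, with 178 of 214 (83.2%). In Tregs it was 0, 79.4 and 311 CPM in IL-33+ hearts and 0, 0 and 599 CPM in IL-33- hearts. Hearts 1, 4 and 5 thus had no *Il5* UMI in Tregs, and the groups overlapped. The UMIs lay in 0, 3 and 6 cells of IL-33+ hearts and 0, 0 and 4 cells of IL-33- hearts. The linear mean was lower in the IL-33+ group (130 against 200 CPM) whereas the log2 fold change was 0.74 (SE 1.00, limma adjusted p = 0.976), so that the sign differed between the scales. Without heart 4 or heart 5 the log2 fold change was -0.24.

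Of the 13 Tregs with *Il5*, 12 had *Il1rl1*, 12 had *Gata3*, 11 had at least 2 ILC2 markers and 0 had *Foxp3*. None of the 51 Tregs with a *Foxp3* UMI had *Il5*, which allows a share of up to 5.88%. The share in all 263 Tregs was 4.94%, so this 0 does not show that *Il5* was rarer in cells with *Foxp3*. The highest cell, in heart 3, held 57 UMIs with 19 of *Il1rl1* and 15 of *Gata3*, and without it the level of heart 3 in Tregs fell from 311 to 103 CPM. The next, in heart 6, held 31 *Il5* UMIs with 22 of *Il1rl1* and 14 of *Gata3*. Outside Tregs, 1 Tem/eff cell of heart 3 held 28 *Il5* UMIs with 26 of *Gata3*, and no other annotation held more than 3.

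*Il13*, the cytokine best known for goblet cell, macrophage and fibroblast responses, was even more concentrated. A pair of Tem/eff cells from heart 1 held 118 of its 153 UMIs. The first had 69 *Il13* UMIs with 27 of *Il1rl1*, 15 of *Gata3* and 2 ILC2 markers, and the second had 49 with 2 of *Gata3*, 1 of *Il4* and 0 of *Il1rl1*. Thus the level in Tem/eff cells was 283, 0 and 0 CPM in IL-33+ hearts and 0, 2.41 and 0 CPM in IL-33- hearts, and was 0 in heart 1 without that pair. It had a UMI in fewer than 3 hearts there and was not tested.

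In Tregs *Il13* was 16.9, 55.5 and 20.4 CPM in IL-33+ hearts and 0, 0 and 50.8 CPM in IL-33- hearts. It was present in every IL-33+ heart and in 1 of 3 IL-33- hearts, on 18 UMIs in 6 cells, of which 4 had *Il1rl1* and 3 had *Il5*. The groups overlapped (log2 fold change 1.05, SE 0.71, limma adjusted p = 0.946). Over all cells it was 19.3, 6.03 and 2.21 CPM against 0.992, 1.16 and 4.31 CPM (log2 fold change 0.57, SE 0.28, limma adjusted p = 0.941), and the change was 0.21 without heart 1, which holds the pair of Tem/eff cells, and 0.84 without heart 3. The thinned share of all cells with an *Il13* UMI was 0.433% ± 0.170 in IL-33+ hearts and 0.212% ± 0.145 in IL-33- hearts (SD, n = 3 each), a difference of 0.221 percentage points (two-sided exact permutation test, p = 0.2, adjusted p = 1). Of the 20 cells with *Il13*, 3 also had *Il5* and 1 had *Il4*.

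*Il4*, the Th2 cytokine, had 37 UMIs in 25 cells. Tem/eff cells held 16 UMIs in 11 cells and Tregs 8 in 4 cells. Of these 15 cells 0 had *Il1rl1*, beside 7.34% of all Tem/eff cells and 15.2% of all Tregs, so 15 cells are too few to show a difference. Over all types, 3 of the 25 cells with *Il4* had *Il1rl1*, beside 2.99% of all cells. In Tem/eff cells 6 of the 11 had *Gata3*. The Tem/eff level was 10.8, 0 and 15.8 CPM in IL-33+ hearts and 0, 9.38 and 6.80 CPM in IL-33- hearts, with overlapping groups (log2 fold change 0.24, SE 0.41, limma adjusted p = 0.999). No cell held both *Il4* and *Il5*. *Il17rb* had 7 UMIs in 7 cells, 2 of them Tregs, 3 cDCs, 1 a fibroblast and 1 a Trm-like cell, and was tested in no type. Both Tregs with *Il17rb* also had *Il1rl1* and at least 2 ILC2 markers.

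**Figure D4:**
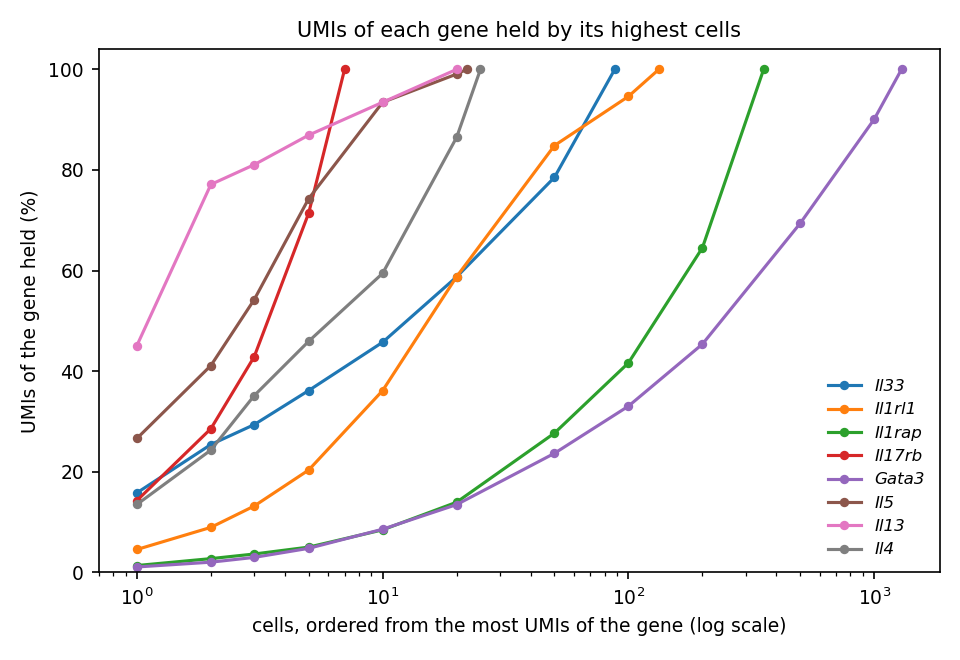
Percent of the UMIs of each gene (vertical axis) held by its highest cells, ordered from the most UMIs (horizontal axis, log scale), over 4441 cells. The 5 highest cells held 86.9% of *Il13*, 74.3% of *Il5* and 45.9% of *Il4*, but 36.2% of *Il33*, 20.4% of *Il1rl1*, 5.03% of *Il1rap* and 4.79% of *Gata3*.

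Across the 8 genes and 14 types, 37 of 112 pairs had at least 10 UMIs and a UMI in at least 3 hearts and were tested with limma, and 0 were called at an adjusted p of 0.05. The other 75 pairs did not pass this filter on low counts. The tested pairs were 14 of *Il1rap*, 13 of *Gata3*, 6 of *Il1rl1* and 1 each of *Il33*, *Il5*, *Il13* and *Il4*. Of all genes, 0.0187% were called in fibroblasts, 0.0128% in Trm-like cells, 0.0272% in unconventional T cells, 0.014% in monocytes and 0.0702% in Mo-DCs, and 0% in the other 9 types and over all cells. Thus hardly any gene was called in these hearts. At an unadjusted p of 0.05 or less, 2 of the 37 pairs passed (5.41%) with limma, beside 3.16% to 6.79% of all genes by type. With limma-voom 3 of 37 passed (8.11%), beside 2.54% to 7.93% of all genes by type. Groups did not overlap in 2 of the 37 pairs (5.41%), again beside 9.82%. By value 25 pairs were higher and 12 lower in IL-33+ hearts, between -1.06 and 1.54 on the log2 scale, with standard errors of 0.17 to 1.29. In Tregs all 5 tested genes were higher on the log2(CPM + 10) scale, with a median of 0.58 beside -0.022 for all 7275 genes tested. The linear mean of *Il5* there was lower in IL-33+ hearts (130 against 200 CPM). These genes were measured in the same 6 hearts and are not independent of each other. The same 15 Tregs with 2 or more ILC2 markers also held 43.8% of the *Il1rl1*, 35.5% of the *Gata3* and 89.3% of the *Il5* UMIs of Tregs.

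**Figure D5:**
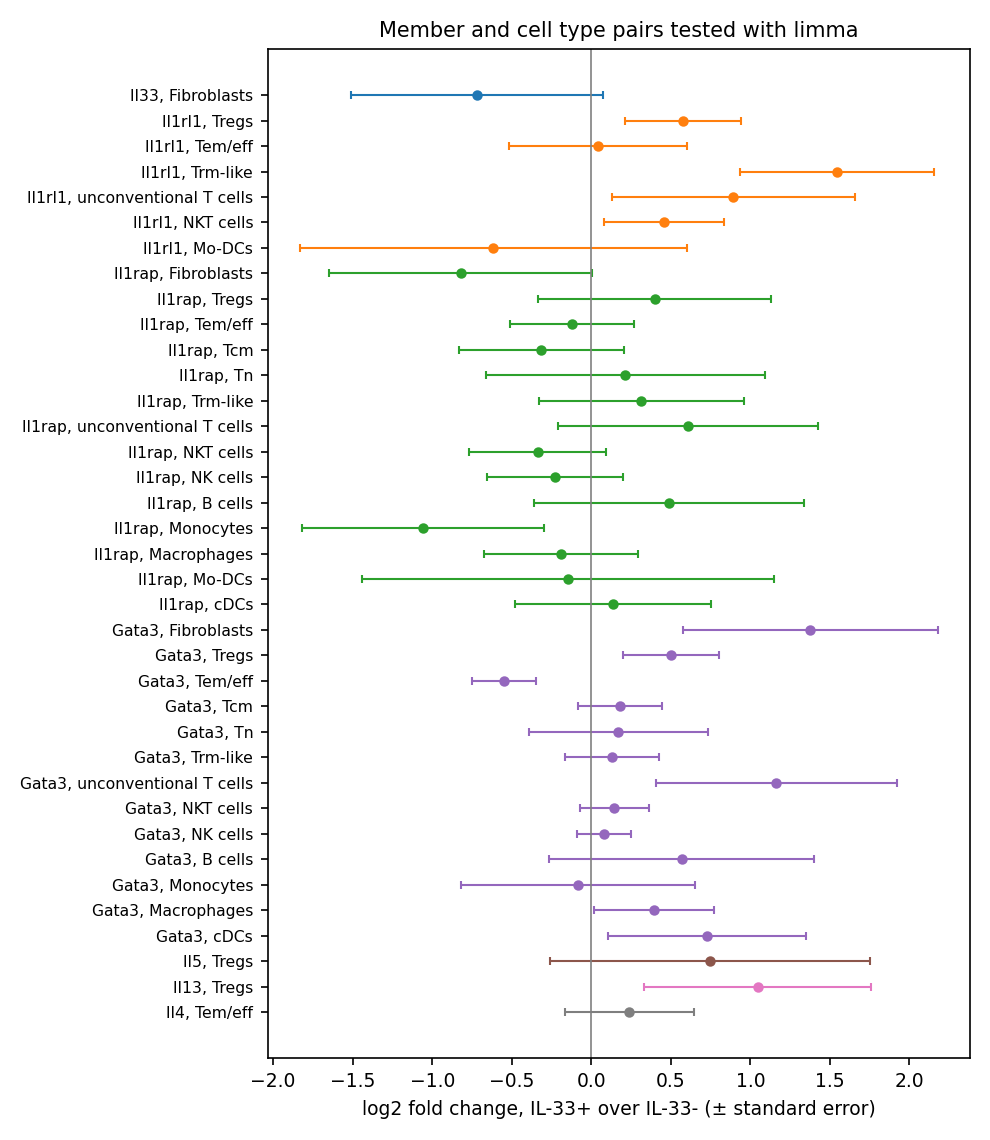
Log2 fold change, IL-33+ over IL-33-, with its standard error for the 37 gene and cell type pairs tested with limma, coloured by gene. Values run from -1.06 for *Il1rap* in monocytes to 1.54 for *Il1rl1* in Trm-like cells, and 0 of the 37 passed an adjusted p of 0.05.

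The pathway around the 8 genes was read from lists of related genes. Counted over the 14 types, 614 tests of 55 pathway genes gave 0 calls with limma and 45 unadjusted p-values of 0.05 or less (7.33%, beside 4.71% of all tests). With limma-voom 1 call was made, the transcription factor gene *Id2* in NK cells (log2 fold change -0.27, SE 0.056, limma-voom adjusted p = 0.0355). In that type limma-voom called 22 of all 9565 genes tested. The 14 genes of IL-33 receptor signalling gave 9 tests higher and 10 lower of 185 at that unadjusted level. In Tregs 8 were higher and 6 lower by value, with a median of 0.084 beside -0.022 for all genes. The most abundant of them there were the NF-κB subunit gene *Nfkb1* (1452 CPM, highest of all types) and its inhibitor gene *Nfkbia* (999 CPM), and *Nfkbia* had a log2 fold change of 0.67 in Tregs (SE 0.20, limma adjusted p = 0.620). *Myd88*, the adaptor of the receptor, was 55.7 CPM in Tregs and 85.5 CPM in fibroblasts.

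Of 6 other IL-1 receptor family genes, 45 tests gave 3 higher and 0 lower at the unadjusted level. The neighbours of *Il1rl1* differed from it in pattern. *Il18r1* and *Il18rap*, which encode the IL-18 receptor, were highest in NK cells (176 and 260 CPM) and were 128 and 79.9 CPM in Tregs. *Il18rap* accounted for all 3, in Tem/eff cells (log2 fold change 0.76, SE 0.33), Trm-like cells (1.11, SE 0.35) and NK cells (0.55, SE 0.18), none of them called (limma adjusted p = 0.998, 0.923 and 0.622). *Il1r1* was highest in fibroblasts (167 CPM) and the decoy receptor gene *Il1r2* in Mo-DCs (654 CPM).

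The 12 genes of the IL-4, IL-13 and IL-5 receptors and their signalling gave 129 tests with 3 higher and 5 lower at the unadjusted level. *Il4ra*, the receptor chain shared by IL-4 and IL-13, was highest in Tregs (308 CPM), and the kinase gene *Jak1* was 509.5 CPM there. *Il4ra* was 168 CPM in macrophages, with a log2 fold change of 0.61 (SE 0.26, limma adjusted p = 0.987). *Il13ra1* was highest in Mo-DCs (97.3 CPM) and 83.5 CPM in fibroblasts. *Il5ra* was almost restricted to B cells (15.01 CPM, 21 UMIs in all cells). Of the IL-25 and TSLP arm, *Il25* had no UMI in these data. *Il17ra*, the partner chain of IL-17RB, was highest in Mo-DCs (253 CPM) and *Crlf2*, the TSLP receptor gene, also (106 CPM). In Tregs the most abundant of this list were *Il17ra* (98.8 CPM) and *Il7r* (93.7 CPM), the other chain of the TSLP receptor. The list gave 2 tests higher and 1 lower of 60.

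Other cytokines of type 2 cells gave 2 tests higher and 1 lower of 35. Among them, *Il10* (385 CPM) and *Areg* (280 CPM) were highest in Tregs. *Areg* had a log2 fold change of 1.65 in Tregs (SE 0.53, limma adjusted p = 0.739), and *Il10* of -2.13 in macrophages (SE 0.43, limma adjusted p = 0.242). Transcription factors of type 2 cells gave 6 tests higher and 3 lower of 139. *Junb* (4538 CPM), *Maf* (1472 CPM) and *Rora* (802 CPM), the last required for ILC2, were highest in Tregs, and *Id2* was 2286 CPM there. The lowest unadjusted p of this list was that of *Id2* in monocytes (log2 fold change -0.90, SE 0.23, limma adjusted p = 0.322), followed by *Rora* in NK cells (-0.87, SE 0.23, limma adjusted p = 0.286). Of the genes beside the cytokine locus, 0 of 35 tests reached the unadjusted level, and *Rad50*, which lies between *Il13* and *Il5*, was highest in Tem/eff cells (29.7 CPM) at 14.2 CPM in Tregs, where *Irf1* (199.9 CPM) and *Sept8* (15.7 CPM) were the most abundant of the list.

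The genes most like each member in pattern across the 14 types were found among 10072 genes with at least 100 UMIs, by Pearson's r of log2(mean CPM + 10) averaged over hearts (n = 14 types, which share the 6 hearts). For *Il1rl1* they were *Il5* (r = 0.95), *Il13* (0.93), *Foxp3* (0.90), *March3* (0.88) and *Areg* (0.87). *Foxp3* was thus close to *Il1rl1* and *Il5* across types. Of the 51 Tregs with *Foxp3* and the 13 with *Il5*, 0 were the same cell, which are too few cells to show that the genes avoid each other. *Il5* was 165 CPM in Tregs, 10.1 CPM in Tem/eff cells and at most 1.92 CPM in any other type. Such r values therefore rest largely on the Treg annotation, and a high r means a shared peak there. *Il5* and *Il13* were also closest to *Il1rl1*, to each other and to *Foxp3*, followed by *Tigit*. *Gata3* was less like *Il1rl1* (r = 0.56) than like *D16Ertd472e* (0.97), *Zw10*, *Gm43774*, *Dgat1* and *Zap70* (0.96 each for the last 4). *Il33* was closest to the fibroblast-enriched genes *Rhoj* (0.99), *Bicc1*, *Fam114a1* and *C1ra* (0.99 each), and *Il1rap* had no close partner (*Hlx*, r = 0.75, *Nxt2*, *Cycs*, *Chmp6* and *Casp6*).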

How the data were processed

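Single-cell RNA-Seq was measured in 6 hashtagged hearts of 1 pool. The authors aligned reads with Cell Ranger to mm10, filtered cells by depth, gene number and mitochondrial content in Partek Flow 10.0.23.0425 to take out likely doublets and poor or dead cells, annotated types and deposited expression as log2(CPM + 1) for every gene in each cell. How hashtags were assigned is not given in the sources used here. Whole UMIs were read back from the spacing of the values (99.9% of values up to 20 UMIs within 0.05 of a whole number), except for 22 symbols, none of them a gene described here. No doublet caller was run on the cells left by that filter.

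Mean CPM of each type per heart plus 10 was compared on the log2 scale with limma 3.58.1 in R 4.3.3 (eBayes with a trend), with Benjamini-Hochberg adjustment over all genes tested in a type and calls at 0.05. Shares were compared by exact permutation over hearts after thinning to 1500 UMIs, and share intervals are Clopper-Pearson. Python 3.11.15, numpy 2.4.6, scipy 1.17.1, pandas 2.3.3 and matplotlib 3.10.9 did the rest. The fit was tested on simulated data. Members, gene lists, markers and tests were chosen with earlier results of these data known, and the wider ILC2 list and the fibroblast minimum after seeing the values. Named genes were the 8 members, listed genes that were called (0) or among the 2 most abundant of their list in Tregs, and the 5 genes closest to each member with at least 50 UMIs, of which 1 is not reported here. Other listed genes were named after their values were seen.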

Additional observations from a re-analysis of the deposited data

How the results depend on the processing

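Alternatives changed the low-count filter, the pseudocount (1 or 50 CPM), the summing of UMIs, limma-voom, centring, mixed cells, the definition of Tregs or fibroblasts and the hearts used, for 17 results. Under all 13 alternatives run for it, 0 members were called. Of 212 recomputed values, 197 kept direction and side of the threshold and 15 changed sign, with the cause not tested. Il33 in fibroblasts was 0.50 with limma-voom, 0.0093 without heart 2 and 0.45 over hearts with at least 20 fibroblasts (range without single hearts -1.29 to 0.0093). Il1rl1 in Tregs was -0.35 without cells of the wider ILC2 list (0.14 to 1.28 without single hearts), and Gata3 in Tregs -0.055 in T cells with a Foxp3 UMI (0.19 to 1.06). Il5 in Tregs was -0.24 without heart 4 or heart 5 and -0.019 in cells with T cell receptor UMIs (up to 2.11 without heart 1). Il1rl1 in Tem/eff cells was -0.69 with 1 CPM added and -0.88, -0.0080 and -0.50 without hearts 1, 3 and 6 (up to 1.02 without heart 2). Il4 in Tem/eff cells was -0.044 without heart 4 (up to 0.64), Il1rl1 over all cells -0.043 without heart 2 (up to 0.61) and Il33 over all cells -0.069 without heart 3 (up to 0.31). Without single hearts Il13 in Tregs stayed within 0.61 to 1.91 and over all cells within 0.21 to 0.84, and Gata3 in Tem/eff cells within -0.75 to -0.33. The difference in the share of Tregs with Il1rl1 stayed within 0.909 to 8.28 points and that of all cells with Il13 within 0.149 to 0.314 points. The ratio of Il1rl1 in Tregs to its level in the highest other type, whichever that was, stayed within 7.51 to 11.3. In 14 cases too few UMIs were left for a fit. No paired analysis was made because the sources used here state no pairing of hearts between the groups. Rare transcripts limit these results, since a heart gave as few as 4 fibroblasts and 25 Tregs.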
